A study of Triticum aestivum with 24 samples.

Results

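The squamosa promoter-binding-like (SPL) transcription factors listed as targets of miR156 in leaves of heat-stressed and control bread wheat (Triticum aestivum cv Chinese Spring) comprised 6 loci. They were chosen as the loci paired with a miRNA of family miR156 and annotated as a squamosa promoter-binding protein, in a table of miRNA targets that held 62 loci in all. The table came from a degradome experiment, also called parallel analysis of RNA ends (PARE), in which the 5′ ends of uncapped, polyadenylated RNA are sequenced so that cut transcripts leave tags at the cut. Its 24 libraries stood for 6 groups, that is, heat-stressed and control plants on days 0, 1 and 4 after the treatment (DAT), with 4 biological replicates in each. Control plants grew at 18 °C in the light and 16 °C in the dark, and heat plants, well watered, spent 5 days at 37 °C from the boot stage. All plants descended from a single selfed individual, and each library held leaf RNA pooled from 18 plants, so a library averages over plants. Each pair in the table has 1 value in each column, with no split by library, treatment or day. Which of the libraries a value covers is not stated. Heat was therefore not compared with control here, and no value below has replicates.

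In plants, miR156 is abundant in the juvenile phase and falls as the shoot ages. It pairs with the transcripts of most SPL genes and directs their cleavage by Argonaute, usually opposite the middle of the miRNA. SPL proteins bind DNA through the SBP domain and, once released from miR156, promote the change to adult growth and flowering, in Arabidopsis partly through miR172 and MADS-box genes. In rice and other cereals the same module is known for its part in tillering and panicle or spike branching.

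The 6 loci were listed with 6 miR156 isomiRs, which differ only at their ends. The mature sequences are shown because their 5′ ends decide how a cleavage position is counted, and capitals mark the seed, bases 2 to 8.
miR156-19-5p: tGACAGAAgagagtgagca
miR156-3-5p: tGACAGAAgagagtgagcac
miR156-4-5p: tGACAGAAgagagtgagcacc
miR156-6-5p: tGACAGAAgagagtgagcaca
miR156-1.1-5p: tTGACAGAagagagtgagcac
miR156-1.2-5p: tTGACAGAagagagtgagcacc
The first 4 share a start and the seed GACAGAA, while miR156-1.1-5p and miR156-1.2-5p start 1 base earlier and have the seed TGACAGA. All 6 contain the 19 nt of miR156-19-5p, whose first base is called the shared start below.

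The sites in the SPL transcripts are shown next, because they fell into 4 sequences that differ only at the outermost bases. Each is the 22 nt stretch paired with miR156-1.2-5p, read 5′ to 3′ in the coding sequence, with bases that did not form a Watson-Crick pair in capitals.
TraesCS6A01G110100, TraesCS6B01G138400 and TraesCS6D01G098500: CAtgctcTctctcttctgtcaa
TraesCS6D01G145200: CAtgctcTctctcttctgtcaG
TraesCS3B01G468400: TgtgctcTctctcttctgtcaG
TraesCS7A01G246500: TgtgctcTctctcttctgtcaa
The 19 nt paired with miR156-19-5p were the same at all 6 loci, 1 distinct sequence. They held a single mismatch, opposite base 14 counted from the shared start, which every isomiR shared. The sites lay at positions 1156 to 1177 of the coding sequence on 6A, 1150 to 1171 in both homoeologues on 6B and 6D, 727 to 748 in TraesCS6D01G145200, 838 to 859 on 3B and 772 to 793 on 7A. The 19 nt began in the same frame of the coding sequence at all 6 loci (1 frame), and the 6A site lay 6 nt further along than those of its homoeologues.

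Pairing differed between isomiRs by what lay beyond these 19 nt. The deposited target score is a penalty, 0 for perfect pairing, and in all 38 pairs of an isomiR and an SPL position it equalled the mismatches plus 0.5 for each G:U wobble. With miR156-19-5p the score was 1 at each of the 5 loci where it was listed. With miR156-1.2-5p the 6 loci were told apart, from 2 on 7A and 2.5 on 3B to 3 at the 6A, 6B and 6D homoeologues and 3.5 at TraesCS6D01G145200. Sites that open with CA in capitals had 3 mismatches with that isomiR and those that open with TG had 2, and a capital G at the end marks a wobble with its first base. The isomiR miR156-6-5p, whose last base differs from that of miR156-4-5p, scored 1 on 3B against 2 for miR156-4-5p, but both scored 3 at the 4 loci on group 6 chromosomes.

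**Figure D1:**
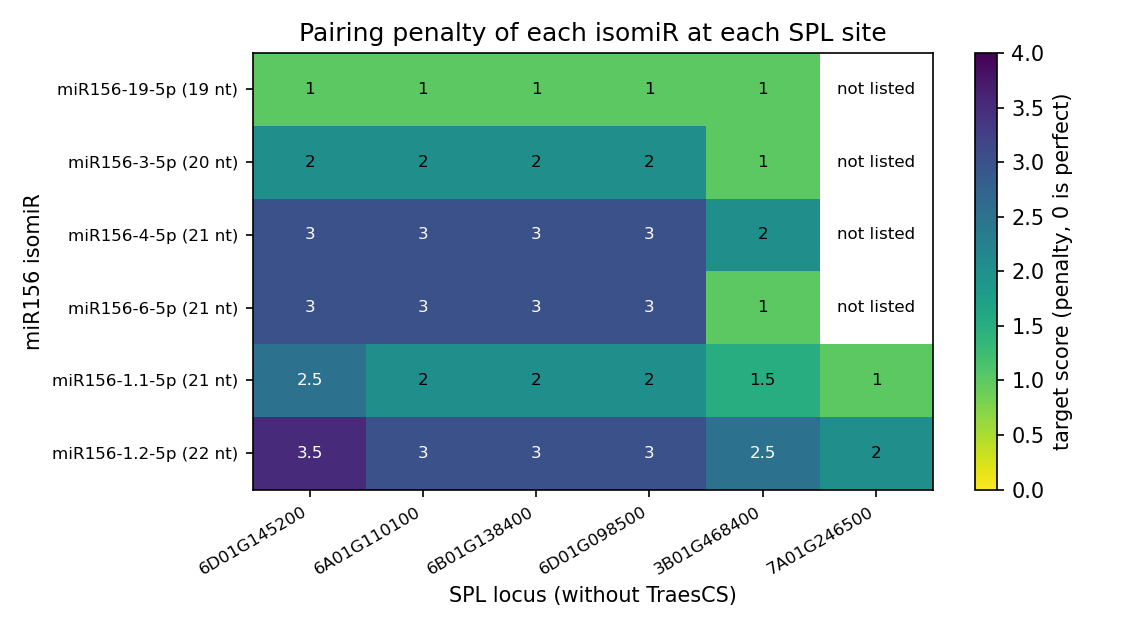
Target score (penalty, 0 is perfect) of each miR156 isomiR (rows, with length in nt) at each SPL locus (columns). Scores ran from 1 to 3.5, and only miR156-1.1-5p and miR156-1.2-5p were listed at the 7A locus.

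TraesCS6D01G145200 had the most tags of the SPL loci. At position 738 of its coding sequence 10 tags were counted (exact Poisson 95% interval 4.80 to 18.4), with the same count under all 6 isomiRs. The window around the position, named as 10 nt in the table, held no other tag (10 of 10, Wilson 95% interval of the share 72.2 to 100%). In all 6 pairs it was nevertheless placed in category 3, the lowest class given to any SPL position, where category 0 stands for the most prominent peak of a transcript. Category 3 was given to 46 pairs at 6 loci of the whole table, with 4 to 10 tags, so this position had the highest count in that class. The other 5 SPL loci each had a position in category 0, which held for 57 of all 62 loci (91.9%).

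The homoeologues TraesCS6A01G110100, TraesCS6B01G138400 and TraesCS6D01G098500 carried identical values throughout. They are called homoeologues here because they lie on the A, B and D copies of chromosome 6 with the same site and values. The table does not show which copy gave the tags, and the sequence beyond the sites, into which tags of this length run, was not used here. Each had 3 different counts over 2 neighbouring positions. At position 1167 of the 6A copy and position 1161 of the 6B and 6D copies, the isomiRs that start 1 base earlier were listed with 8 tags (interval 3.45 to 15.8) of a window of 11, in category 0. The 4 isomiRs with the shared start were listed at the same position with 4 tags (interval 1.09 to 10.2) of a window of 8, in category 1. The same position thus carried 2 counts and 2 window totals, so these pairs rest on different sets of tags, and the sources used here do not state what separates the sets. The third count was 5 tags (interval 1.62 to 11.7) of a window of 7, in category 0, at the next position. It was listed only under miR156-1.1-5p and miR156-1.2-5p. If the window of 10 nt covers both positions, the 5 and the 8 together exceed the window of 11. Likewise the 5 and the 4 exceed the window of 8, so the third count would rest on another set again. The position with 8 tags is called leading below and the next one second, an order across counts that may come from different sets. The window shares were 72.7% (43.4 to 90.2), 50.0% (21.5 to 78.5) and 71.4% (35.9 to 91.8), with overlapping intervals.

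The remaining SPL loci stood at the lowest count in the table. TraesCS3B01G468400 on 3B had 4 tags at position 849 (interval 1.09 to 10.2), the whole of its window of 4, under all 6 isomiRs and in category 0. TraesCS7A01G246500 on 7A had 4 tags of a window of 4 at position 784, also in category 0, but only under miR156-1.1-5p and miR156-1.2-5p. A share of 4 of 4 has a Wilson interval of 51.0 to 100%. In order of their highest count, the loci thus ran from 10 tags through 8 at the homoeologues to 4 on 3B and 7A. The intervals of neighbours in this order overlap, as do those of the first and the last. Overlap is no test, so whether the levels differ was not tested. Counts of different loci also need not come from the same libraries. Over 4 tags were found at 4 of the 6 SPL loci, against 64.5% of all loci.

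**Figure D2:**
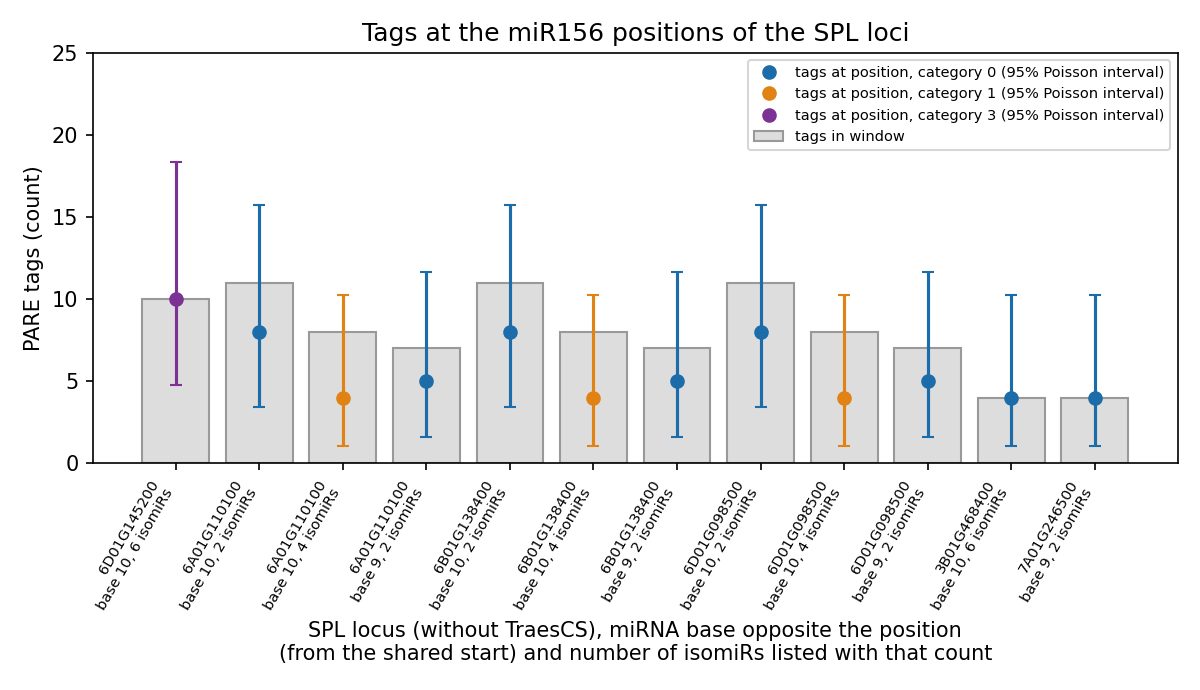
PARE tags at each listed position of the 6 SPL loci (points, exact Poisson 95% intervals, coloured by category) and tags in the window around it (grey bars), 1 column for each distinct count. Counts ran from 4 to 10 with overlapping intervals, and the 6A, 6B and 6D homoeologues had the same 3 counts.

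The cleavage position was then set against the miRNA. A tag that begins opposite base 10 is the product usually described for Argonaute. Counted from the 5′ end of each isomiR, 28 of the 38 SPL pairs lay opposite base 10 and 10 opposite base 11. All 20 pairs with the 4 isomiRs of the shared start lay opposite base 10. Of the 18 pairs with the isomiRs that start 1 base earlier, 8 lay opposite base 10 and 10 opposite base 11. Counted from the shared start instead, positions with the same offset line up. The positions at TraesCS6D01G145200, TraesCS3B01G468400 and the leading positions of the homoeologues all lay opposite base 10 (5 positions, 30 pairs). The second position of each homoeologue and the position on 7A lay opposite base 9 (4 positions, 8 pairs). The 7A locus was thus the only SPL locus whose listed position was not the one shared by the other 5. No pair of the 239 in the table lay opposite a base below 10 of its own miRNA, and for the 4 isomiRs of the shared start these 4 positions would fall opposite base 9. Each of the 6 SPL loci had at least 1 pair opposite base 10 of its own isomiR, against 59.7% of all loci. The share for SPL loci draws on 2 to 6 isomiRs a locus, where the median over all loci was 1.5 miRNAs.

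The deposited p-values of the SPL pairs ran from 0.00027 to 0.00912, against a highest value of 0.0338 in the table. They did not follow the score throughout. At TraesCS6D01G145200, where every isomiR had the same tags, window and category, the p-value was 0.00167 for miR156-19-5p with a score of 1 and 0.00027 for miR156-4-5p with a score of 3. At the homoeologues the same isomiRs had 0.00273 and 0.000441. On 3B, miR156-19-5p again had the highest p-value, 0.00912, and miR156-1.1-5p with a score of 1.5 the lowest, 0.0056. On 7A the deposited p-value did rise with the score, from 0.00563 for miR156-1.1-5p with 1 to 0.00716 for miR156-1.2-5p with 2. The p-values thus differed between isomiRs of the same position and, outside 7A, did not rank them by their pairing.

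Family miR156 was also listed with 3 loci outside the SPL class. These were TraesCS2A01G152000, TraesCS2B01G177100 and TraesCS2D01G157100, annotated as low temperature and salt responsive proteins and listed with miR156-19-5p only. Their site is shown for comparison with the 19 nt shared by the SPL loci, with bases outside Watson-Crick pairs in capitals.
Site on 2A, 2B and 2D, positions 113 to 131: tgctcacCTtcttcGgCTa
It lacked the mismatch at base 14 but had mismatches opposite bases 3, 5 and 12 and wobbles opposite bases 2 and 11, and its deposited score was 6 against 1 for the same isomiR at the SPL loci. The sum that gave the score of every SPL pair would give less than 6 here, so it does not hold for this site and the scores are not sums of like penalties. Each of these loci had 5 tags of a window of 12 at position 120 (41.7%, Wilson interval 19.3 to 68.0) and 4 of 10 at position 121 (40.0%, 16.8 to 68.7). These positions lay opposite bases 12 and 11, and none of the 6 pairs (0) lay opposite base 10. The tag counts fell within the range of the SPL loci. The positions lay beyond bases 9 and 10 counted from the shared start, where the SPL positions were. Under the same isomiR, miR156-19-5p, the window share at the SPL positions was 50.0% at the 6A, 6B and 6D homoeologues, with an interval that overlaps those above, and 100% at TraesCS6D01G145200 and on 3B.

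The SPL loci were set beside 2 other classes of conserved targets and the whole table. The median of the highest count per locus was 8 tags (range 4 to 10) for the 6 SPL loci, 4 at all 4 homeobox leucine-zipper loci of miR166, which act in leaf polarity, and 7 (4 to 7) at the 5 loci of TIR1, the auxin receptor, under miR393. It was 5 (4 to 27) over all 62 loci, of which 10 had 8 tags or more. The SPL median rests on the 3 homoeologues: it was 6 with 1 locus for each set of identical values and 4 with the lowest count of the leading position. The lowest score was 1 at every SPL locus, between 0.5 and 1 at the homeobox leucine-zipper loci, 3.5 at the TIR1 loci and a median of 3.5 (0 to 6) over all loci. A score of 1 or less was reached at 16 of the 62 loci. The SPL value is a lowest score over 2 to 6 isomiRs a locus, and its median was 2 with miR156-1.1-5p alone and 3 with miR156-1.2-5p alone or with the highest score of each locus. The median window share was 86.4% (72.7 to 100) at the SPL loci and 87.5% (37.5 to 100) over all loci. Position opposite base 10 accounted for 73.7% of SPL pairs, 57.7% of those of the homeobox leucine-zipper loci, 63.6% of those of TIR1 and 42.3% of all pairs. This order depended on counting several miRNAs at 1 position. To count each position once, the pair with the highest count was taken, and the lowest p-value on ties. On 3B and at the leading positions of the homoeologues this was an isomiR that starts 1 base earlier, opposite base 11. The 4 isomiRs of the shared start lay opposite base 10 at those positions, so the share depends on the pick. With this pick the shares were 55.6% of 9 SPL positions and 75.0% of 4 homeobox leucine-zipper positions. They were 55.6% of 9 TIR1 positions and 34.8% of all 92. These are descriptions of 1 table without replicates; several loci have the same sites and equal counts, so no difference between classes was tested.

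**Figure D3:**
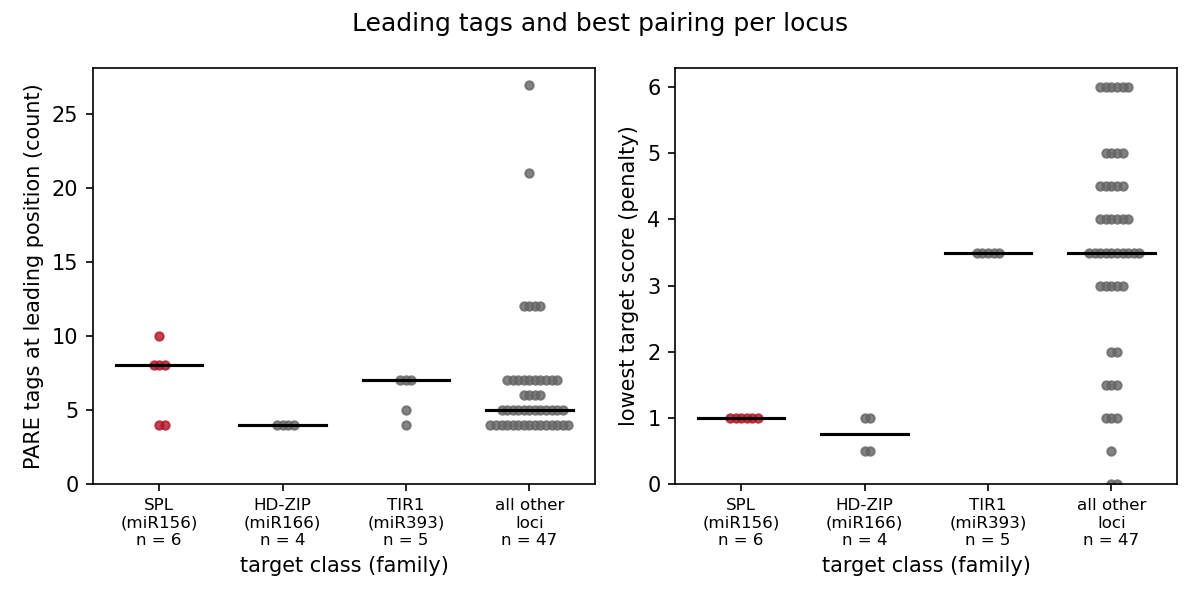
Highest PARE tag count per locus (left) and lowest target score per locus (right) for SPL loci, homeobox leucine-zipper (HD-ZIP) loci, TIR1 loci and the 47 other loci. Points are loci and black lines are medians. The SPL loci lie at a score of 1 with 4 to 10 tags.

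Of the genes known to act around SPL factors, few could be looked for, since the table holds only listed targets. By the words of the annotation, 0 of the 62 loci were AP2 or ethylene-responsive factors. Family miR172, known to target the AP2-like genes among these, had no pair (0). Likewise 0 loci were annotated as MADS-box factors, flowering locus T or terminal flower, argonaute or dicer. No SPL locus (0) was listed under a family other than miR156. Such zeros describe the pairs used here, which begin at 4 tags, and do not show that these transcripts were uncut.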

How the data were processed

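Leaf degradome libraries were made by the authors from pooled RNA, and per the study's methods reads of 19 to 21 nt were collapsed to tags and mapped to wheat coding sequences (IWGSC RefSeq v1.0); sPARTA did the mapping and its module miRferno the target prediction. The authors deposited 1 table of 239 pairs, with fewer target loci than the paper reports. Its PARE abundance is a tag count in whole numbers, whose normalization is not stated, its window abundance a tag signal around the position, its window fraction the former over the latter (largest gap 0.000481, that is, rounding), and its score and category are scores given by the authors' tools. The deposited p-value is that of each pair, and a further column of corrected p-values was not used. As filter the study states p-values under 0.05 with abundances over 4, but the table held 123 pairs at exactly 4. As 0 of its columns belong to a library, library depth is unknown here.

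The members and lists were chosen with earlier results of these data known. Deposited miRNA sequences run 3′ to 5′ against the target in all 239 pairs and were reversed here. Loci are gene IDs stripped of the transcript number, and positions are those of the listed transcript, counted from 1. The miRNA base opposite a position was counted with base 1 paired to the end of the binding site. Where a locus had several counts, the highest was used, with the lower p-value on ties. Genes named were all 6 SPL loci and the other loci under miR156, and further classes only as counts, medians and ranges. Intervals are exact Poisson for tags and Wilson for shares, at 95%. They take the deposited values as raw counts, which is not stated, and ignore that listed pairs begin at 4 tags. Both cover no more than counting error, and PCR copies make tags less than independent. No test was run: the planned edgeR comparison of heat and control needs counts per library. Of the 62 loci, 0 matched the reference gene names, which follow assembly v2.1, so annotations are the authors'. Pairing and intervals were tested on simulated data. Python 3.11.15, pandas 2.3.3 and SciPy 1.17.1 were used.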

Additional observations from a re-analysis of the deposited data

How the results depend on the processing

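No paired analysis was possible because replicate numbers of the libraries appear nowhere in the table. Hence the replicate block, DESeq2, the low-count filter and leaving out replicates were not run for heat against control. The 6 SPL loci and 9 positions stayed at a p-value under 0.01; at an abundance over 4 there were 4 loci and 7 positions, and in category 0 only 5 loci and 8 positions. With 1 locus for each set of identical values there were 4 loci and 5 positions, a median of 6 tags and a median window share of 100%, instead of 8 tags and 86.4%. With the lowest in place of the highest count of the leading position the medians were 4 tags and 75.0%, a change that came from the homoeologues alone. The median score of 1 per SPL locus became 3 with the highest score over isomiRs, 2 with miR156-1.1-5p alone and 3 with miR156-1.2-5p alone, the isomiRs listed at all 6 loci. The share of pairs opposite base 10 was 73.7% as reported and 79.0% counted from the shared start. It was 55.6% with 1 pair for each position, picked by highest count and then lowest p-value.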
